A study of Mus musculus with 24 samples.

Results

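The genes described here are the cytosolic ribosomal protein genes, 83 of the 15055 genes in the deposited table. They were taken by name: symbols that begin with Rpl or Rps and a number, together with Rplp0, Rplp1, Rplp2 and Rpsa. Of 98 names that fitted the pattern, 5 that carry the -ps suffix of pseudogenes and 10 that belong to the Rps6k kinases were left out. The 83 members comprise 42 genes of the large subunit, 30 of the small subunit, 3 of the stalk, 7 paralogues of ribosomal protein genes and Rps19bp1. Rps19bp1 passes the name rule but encodes a protein that binds Rps19 and is not itself a ribosomal protein. Among the paralogues, Rps4l and Rpl37rt are annotated as transcribed processed pseudogenes. Rpl23a and Rps29 are not analysed here.

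RNA came from the hind limb digit tip of C57BL/6 mice, an inbred laboratory strain, aged 10-12 weeks, with bone, cartilage, marrow, dermis and epidermis in 1 sample. The digits had been amputated at a distal or a proximal level, and tissue was taken 12, 14 or 21 days post amputation (DPA). With 4 libraries each, the 6 groups are distal and proximal at 12 DPA, distal and proximal at 14 DPA, and distal and proximal at 21 DPA. The mouse digit tip is known to regrow after distal amputation and not after proximal amputation. No genotype other than the strain and no further treatment is given for any group, and there is no uninjured group among these libraries. Ribosomal RNA was removed by hybridisation before sequencing.

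Each cytosolic ribosome is built from ribosomal RNA and about as many kinds of protein as the members listed here, with 1 copy of nearly every protein in each particle. The small subunit reads the messenger RNA, the large subunit joins amino acids, and the stalk recruits the factors that drive elongation. Ribosomal protein messenger RNAs begin with a tract of pyrimidines through which mTORC1 signalling and Larp1 control their translation, so the level of the messenger RNA and the rate at which protein is made from it can differ. In mammals each of these genes usually has 1 working copy and many processed pseudogenes, which are copies of the spliced messenger RNA inserted elsewhere in the genome.

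That last property bears on the levels, because a read that matches the gene and a pseudogene equally well may not be assigned to the gene. A level is given here as the deposited value per kb of the length listed in the table. Across the 83 members the level ran between 17.7 and 15345, an 868-fold range, with a median of 273.5. The highest was that of Rpl8, a large subunit protein close to the centre where peptide bonds form, with a mean value of 13227 over the 24 libraries. Rplp1, a stalk protein, followed at 10250 per kb and Rpl4 at 8040 per kb. For Rpl8 the listed length is 862 bases and the annotated exon union 1359 bases, so its rank and the 868-fold range depend on the length used. By mean value alone Rpl4 was highest, at 16136. The lowest was that of Rpl24, a large subunit protein, with a mean value of 18.2. Listed levels thus lay far apart within the set: 17 members had a mean value under 100 and 27 a mean above 1000.

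Transcripts of 80 of the 83 members share at least 1 stretch of 50 bases with another annotated gene, with a median of 10 such genes. The coding start of Rpl24 and that of the processed pseudogene Gm9385 are shown because Rpl24 had the lowest level, although several members, such as Rps27 and Rpl35, have a smaller unique share. Rpl24 lies at chr16:55966275-55971435 on the plus strand and Gm9385 at chr9:116040593-116041064 on the minus strand (GRCm38, GENCODE M21). The 2 sequences are 99.8% identical over the 471 coding bases, and the 60 bases that begin at the start codon hold 0 mismatches.
Rpl24 and Gm9385: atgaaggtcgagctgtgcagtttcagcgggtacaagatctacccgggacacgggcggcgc
Rpl8, at chr15:76904078-76906314 on the plus strand, is the contrast. It shares a 50-base stretch with 1 other gene, and a 100-base stretch with 1 other gene, which was not identified. For display it is set against the processed pseudogene Gm14294 at chr2:179364293-179365043, chosen by alignment of the coding sequence and 74.4% identical over 723 bases. That search left out 1 chromosome, and whether a closer copy exists was not examined. Coding bases 79 to 138 hold 13 mismatches, set in capitals below.
Rpl8: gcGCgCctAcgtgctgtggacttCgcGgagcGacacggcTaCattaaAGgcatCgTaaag
Gm14294: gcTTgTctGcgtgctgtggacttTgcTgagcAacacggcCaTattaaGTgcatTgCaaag
Of the 50-base stretches, 18.3% of those in Rpl24 and 92.1% of those in Rpl8 occur in no other gene.

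The same ordering held across members as a tendency. In the 5 members with up to 10% of stretches unique the median level was 66.2 per kb, in the 39 members between 10% and 50% it was 180, in the 31 between 50% and 90% it was 466, and in the 8 above 90% it was 495. Spearman's rho between the level per kb and the unique share was 0.40 over the 83 members, and 0.53 with stretches of 100 bases. These points share the same libraries, and genes are not independent replicates. The unique share was computed on 1 main transcript per gene, but the level was divided by the listed length, which is often longer. For Rpl18 these are 679 and 4043 bases. Of the 8 above 90%, Rpl39l and Rpl7l1 are paralogues and Rps19bp1 is not a ribosomal protein. Exceptions stood on both sides: Rplp1 had 40% of its stretches unique at 10250 per kb, while Rpl39l had 100% unique at 24.8 per kb. How much of the range in levels comes from read assignment was not tested. Levels of different members are for that reason not read as relative amounts of messenger RNA, and the results below compare each gene with itself between libraries.

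**Figure D1:**
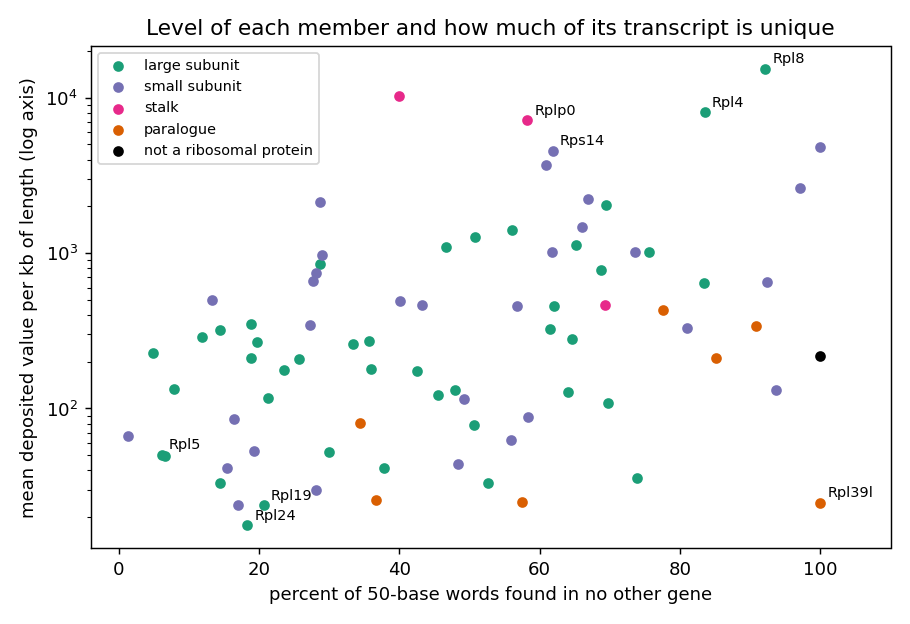
The plot of level against uniqueness has 1 point per member, coloured by class, with the percent of 50-base stretches found in no other gene on the x axis and the mean deposited value per kb of length, on a log axis, on the y axis. Rpl8 is the highest point at 92.1% unique and 15345 per kb, and Rpl24 the lowest at 18.3% and 17.7 per kb.

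Summed, the members made up between 0.618% and 0.981% of the table total in the 24 libraries. For each library the median was taken over the 83 members of the log2 deviation from each member's own mean. At 12 DPA this median was -0.01, 0.14, 0.17 and -0.06 in the distal libraries, against -0.05, -0.11, -0.13 and -0.09 in the proximal libraries, and 3 of the 4 distal libraries lay above all 4 proximal ones. At 14 DPA it was -0.19, 0.00, -0.06 and -0.31 in the distal libraries, against -0.05, 0.01, 0.15 and -0.18 in the proximal libraries, with overlap. At 21 DPA it was 0.00, 0.22, 0.01 and 0.24 in the distal libraries, against 0.17, 0.01, 0.12 and 0.10 in the proximal libraries, again with overlap. The range within a group was 0.23 log2 units in distal libraries at 12 DPA, 0.31 at 14 DPA and 0.24 at 21 DPA, and 0.08, 0.33 and 0.15 in proximal libraries on the same days. These ranges are about as wide as the distances between group means, which were 0.06, -0.14 and 0.12 in distal libraries and -0.10, -0.02 and 0.10 in proximal libraries from 12 to 21 DPA.

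The lowest of the 6 group means fell in the distal libraries at 14 DPA for 43 of the 83 members and in the proximal libraries at 12 DPA for 24. The highest fell in the distal libraries at 21 DPA for 34 members and in the proximal libraries at 21 DPA for 19. In a tissue measured whole, fewer cells of a type and less RNA per cell cannot be told apart.

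**Figure D2:**
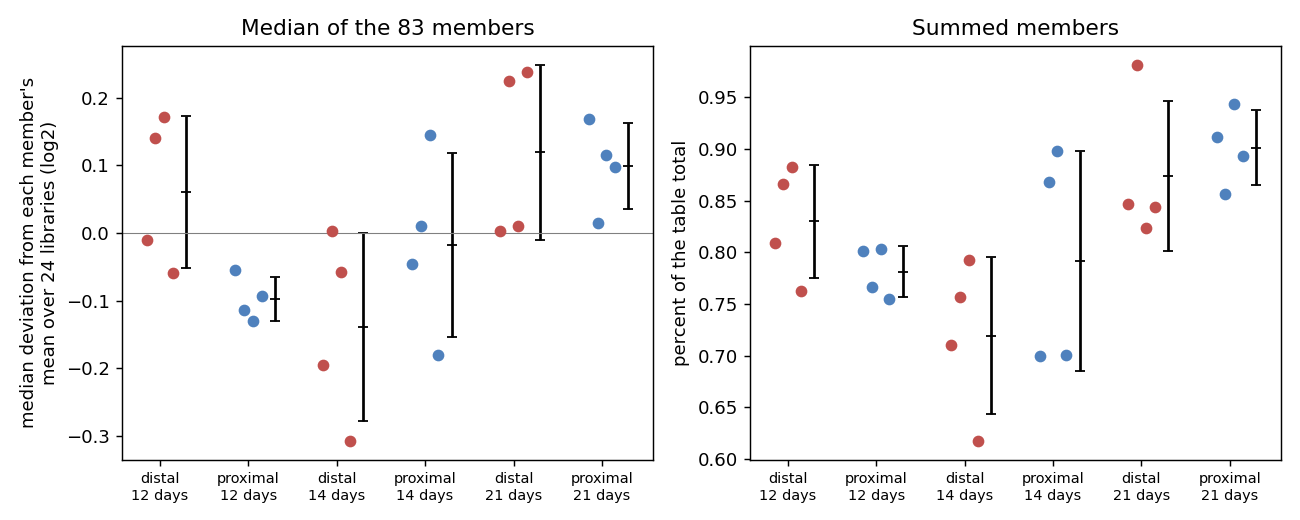
Each point is a library, in red for distal and blue for proximal amputation, and the bars give the mean and SD of 4 libraries. The left panel has the median log2 deviation of the 83 members and the right panel their summed share of the table total in percent; at 12 DPA 3 of 4 distal libraries lie above the proximal ones in the left panel, and groups overlap at 14 and 21 DPA.

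Tests used limma on log2(value + 1) over all 24 libraries and all 15055 genes, with Benjamini-Hochberg adjustment over all genes; a gene is called at an adjusted p under 0.05, and errors of log2 differences are standard errors. No label states whether replicate libraries are separate animals; the p-values therefore measure only the spread between libraries, which may be technical.

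At 12 DPA, 5 members rose in distal digits relative to proximal digits and 0 fell. That is 6.02% of the members called higher, where 9.25% of all genes were called higher and 11% lower. The difference was positive for 75 of the 83 members, with a median of 0.16 log2 units against -0.03 over all genes. All values of the distal group lay above those of the proximal group for 12 members and below them for 1, where the same held for 10.4% and 12.6% of all genes. The shift therefore ran through most members at a size that few passed singly, and the count of calls was not above that of genes at large.

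Of the members called at 12 DPA, Rpl27, a large subunit protein, had the largest difference. Its values were 312, 298, 346 and 269 in distal libraries, against 219, 246, 192 and 194 in proximal libraries. Every distal library lay above every proximal one, and the log2 difference was 0.53 ± 0.13 (adjusted p = 0.00679). Rpl15, another large subunit protein, had 280, 346, 293 and 288 in distal libraries, against 234, 200, 244 and 264 in proximal libraries. Again the groups did not overlap, and the difference was 0.36 ± 0.11 (adjusted p = 0.0216). Rps19bp1 and Rpl7l1, which are not core ribosomal proteins, were also called. Rps19bp1 had 188, 172, 176 and 188 in distal libraries, against 151, 147, 142 and 138 in proximal libraries, a difference of 0.32 ± 0.10 (adjusted p = 0.026). Rpl7l1, a paralogue of Rpl7, averaged 1034 ± 77.1 in distal and 895 ± 31.5 in proximal libraries (SD, n = 4 each), a difference of 0.21 ± 0.07 by limma (adjusted p = 0.0337).

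Rpl27 was called at 12 DPA under every alternative run, with adjusted p between 0.00537 and 0.0263. Scaling the libraries to equal table totals left Rpl27 as the only call, and the count was 3 without distal replicate 2, 3 without proximal replicate 2, 2 without proximal replicate 3 and 3 without proximal replicate 4.

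Several members with known specialised roles were not called at 12 DPA. Rpl38, whose loss alters skeletal patterning in mice through the translation of Hox messenger RNAs, had 66, 74, 110 and 77 in distal libraries, against 64, 50, 52 and 65 in proximal libraries. Its groups did not overlap, with a difference of 0.48 ± 0.18 (adjusted p = 0.0644). Rpl5 and Rpl11, which with a small ribosomal RNA bind and restrain Mdm2 when ribosome assembly fails, differed by 0.15 ± 0.11 (adjusted p = 0.363) and 0.12 ± 0.14 (adjusted p = 0.568). The lowest difference was that of Rpl39l, at -0.48 ± 0.39 (adjusted p = 0.411), on values of 19 to 31 in distal and 18 to 45 in proximal libraries.

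**Figure D3:**
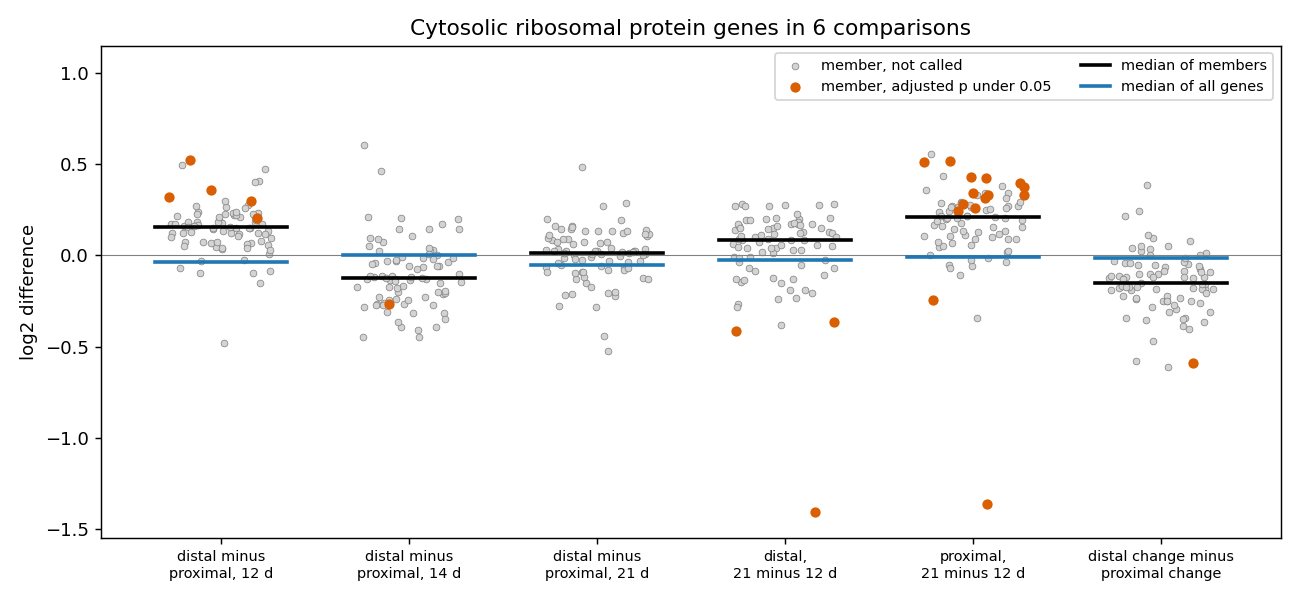
Each point is the log2 difference of 1 member in 1 of 6 comparisons, in orange where the adjusted p was under 0.05; black bars are the median of the 83 members and blue bars that of all 15055 genes. The member median is 0.16 for distal minus proximal at 12 DPA and 0.21 for proximal 21 minus 12 DPA, and the single lowest point in both 21 minus 12 DPA comparisons is Rpl39l.

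At 14 DPA, 0 members rose and 1 fell in distal digits. That is 1.2% called lower, where 2.32% of all genes were called lower and 3.06% higher. The difference was positive for 20 members and negative for 63, with a median of -0.12 against 0.00 over all genes. That median was -0.0514 without distal replicate 4 and -0.0751 without proximal replicate 3, and lay between -0.107 and -0.179 without any other single library. Values did not overlap for 5 members, all lower, where 5% of all genes were lower without overlap and 6.28% higher. The called member was Rpsa, a small subunit protein that also serves as a laminin receptor. It had 173, 188, 181 and 163 in distal libraries, against 189, 234, 233 and 197 in proximal libraries, so that every distal value lay below every proximal one. The difference was -0.27 ± 0.08 (adjusted p = 0.046), and over the alternatives the adjusted p ran between 0.0343 and 0.23. The call of Rpsa was lost in 10 alternatives. These were table totals, only the compared groups, the replicate block, quality weights, and the fits without any 1 of the 4 distal libraries or without proximal replicate 2 or 3. The count at 14 DPA was 0 without distal replicate 1 or 3 or proximal replicate 2 or 3, and 4 without proximal replicate 4. Any call left without distal replicate 2 or 4 was thus not that of Rpsa. The widest differences were not called: Rps16, a small subunit protein, stood at 0.61 ± 0.36 (adjusted p = 0.354) with values of 76 to 151 in distal and 33 to 117 in proximal libraries, and Rps13, also of the small subunit, at -0.45 ± 0.16 (adjusted p = 0.104). The difference of Rps16 was 0.246 without proximal replicate 2 and ran up to 0.844 without proximal replicate 1.

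At 21 DPA the differences between levels centred near 0. In limma 0 members were called in either direction, where 8.22% of all genes were called higher and 9.43% lower in distal digits, and at an unadjusted p under 0.05 there was 1 member higher and 1 lower. The median difference was 0.01 against -0.05 over all genes, with 48 members positive. Scaling to table totals turned the sign of that median to -0.13, while it moved the median of all genes to -0.19, so that the members stood above all genes under both scalings; 2 members were then called lower. Without distal replicate 3, 1 member was called higher. Values did not overlap for 1 member, which was lower, where 10.2% of all genes were lower without overlap and 8.58% higher. Rplp0, the stalk protein that anchors the others, had 13981, 16014, 11984 and 15072 in distal libraries, against 12357, 11189, 11617 and 11420 in proximal libraries. Of its 4 distal libraries 3 lay above all proximal ones, and the difference was 0.29 ± 0.11 (adjusted p = 0.0655). The highest difference was that of Rps4l, at 0.48 ± 0.24 (adjusted p = 0.175), and the lowest that of Rpl39l, at -0.52 ± 0.39 (adjusted p = 0.374).

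The most calls came over time in proximal digits. Between 12 and 21 DPA, 13 members rose and 2 fell there. That is 15.7% of the members called higher and 2.41% lower, where 12% of all genes were called higher and 17% lower. The difference was positive for 73 members, with a median of 0.21 log2 units against -0.01 over all genes. Values at 21 DPA lay wholly above those at 12 DPA for 32 members and wholly below them for 1, where 11.5% of all genes were higher and 16.2% lower without overlap. The calls included 6 of 42 large subunit genes, 5 of 30 small subunit genes and 1 of 3 stalk genes.

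Rpl27 again led the rise, with 337, 294, 246 and 351 at 21 DPA, against 219, 246, 192 and 194 at 12 DPA. The ranges touched at 246, and the difference was 0.52 ± 0.13 (adjusted p = 0.0046). Rpl35, a large subunit protein at the mouth of the exit tunnel, had 372, 341, 334 and 332 at 21 DPA, against 246, 240, 228 and 252 at 12 DPA. No values overlapped, and the difference was 0.51 ± 0.13 (adjusted p = 0.00437). Rps13 averaged 84.2 ± 12.4 at 21 DPA and 62.8 ± 13.5 at 12 DPA (SD, n = 4 each), 0.43 ± 0.16 by limma (adjusted p = 0.0468); over the alternatives its adjusted p reached 0.173. Rpl32, a large subunit protein, had 2606, 2076, 2377 and 2106 at 21 DPA, against 1741, 1856, 1544 and 1664 at 12 DPA. Its difference was 0.43 ± 0.14 (adjusted p = 0.0255). Rplp2, a stalk protein, had 1253, 942, 1082 and 1049 at 21 DPA, against 852, 801, 791 and 823 at 12 DPA, with no overlap and a difference of 0.40 ± 0.13 (adjusted p = 0.024). Rps19bp1 averaged 188 ± 11.1 at 21 DPA and 144 ± 5.69 at 12 DPA (SD, n = 4 each), 0.38 ± 0.10 by limma (adjusted p = 0.00716). Further rises, in Rpl34, Rps18, Rps2, Rpl22 and Rpl6, lay between 0.24 and 0.34 log2 units. The highest difference of all, 0.56 ± 0.36 for Rps16, was not called (adjusted p = 0.257).

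The calls of Rpl27, Rpl35, Rps18, Rps19bp1 and Rpl39l in proximal digits between 12 and 21 DPA held under every alternative run. The count of 15 calls was 8 without proximal 12 DPA replicate 3, 9 without proximal 21 DPA replicate 1, 33 with only the compared groups in the fit and 26 with weights for library quality.

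Between 12 and 21 DPA in distal digits, 0 members rose and 3 fell; 3.61% were called lower, where 15% of all genes were called lower and 8.81% higher. The median difference was 0.09 against -0.02 over all genes, with 56 members positive. That median was 0.0369 without distal 21 DPA replicate 4, 0.0401 without distal 21 DPA replicate 2 and 0.0406 without distal 12 DPA replicate 4, and between 0.0595 and 0.131 without any other single library. Values did not overlap for 4 members higher and 4 lower, where 9.01% and 14.9% of all genes did not. Rpl7l1 had 808, 829, 727 and 851 at 21 DPA, against 994, 1095, 1103 and 946 at 12 DPA. The difference was -0.36 ± 0.07 (adjusted p = 0.000485), with no overlap. Rpl11 had 102, 97, 81 and 98 at 21 DPA, against 124, 119, 132 and 128 at 12 DPA, without overlap. The difference was -0.41 ± 0.14 (adjusted p = 0.035), and over the alternatives the adjusted p ran between 0.0264 and 0.11. The highest difference, 0.28 ± 0.36 for Rps16, was not called (adjusted p = 0.602).

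The change between 12 and 21 DPA was then compared between levels, distal minus proximal. The difference in change was negative for 69 of the 83 members, with a median of -0.15 against -0.01 over all genes. By limma 0 members were called higher and 1, or 1.2%, lower, where 7.42% of all genes were called in each direction. The called member was Rpl27, at -0.59 ± 0.18 (adjusted p = 0.0344). Its mean was 293 in distal libraries at 21 DPA, against 306 at 12 DPA, and 307 in proximal libraries at 21 DPA, against 213 at 12 DPA. That call was lost, with adjusted p up to 0.0764, with quality weights and without any 1 of 8 libraries, which are distal 12 DPA replicates 1 and 3, distal 21 DPA replicates 1 and 3, proximal 12 DPA replicates 3 and 4, and proximal 21 DPA replicates 1 and 4. The count of members called was 0 without distal 12 DPA replicate 3, distal 21 DPA replicate 1 or 3, proximal 12 DPA replicate 3 or 4, or proximal 21 DPA replicate 1, and 2 without distal 12 DPA replicate 4, distal 21 DPA replicate 2 or proximal 21 DPA replicate 2. The lowest difference in change, -0.61 ± 0.22, was that of Rps6 (adjusted p = 0.0586), the small subunit protein that S6 kinases phosphorylate. Rps6 had 57, 71, 56 and 71 in distal libraries at 21 DPA, against 73, 81, 97 and 62 at 12 DPA. In proximal libraries it had 75, 93, 71 and 59 at 21 DPA, against 50, 64, 62 and 58 at 12 DPA. The comparisons at 12 DPA and over time share the same proximal 12 DPA libraries, which were low for most members, so they are not independent of each other.

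**Figure D4:**
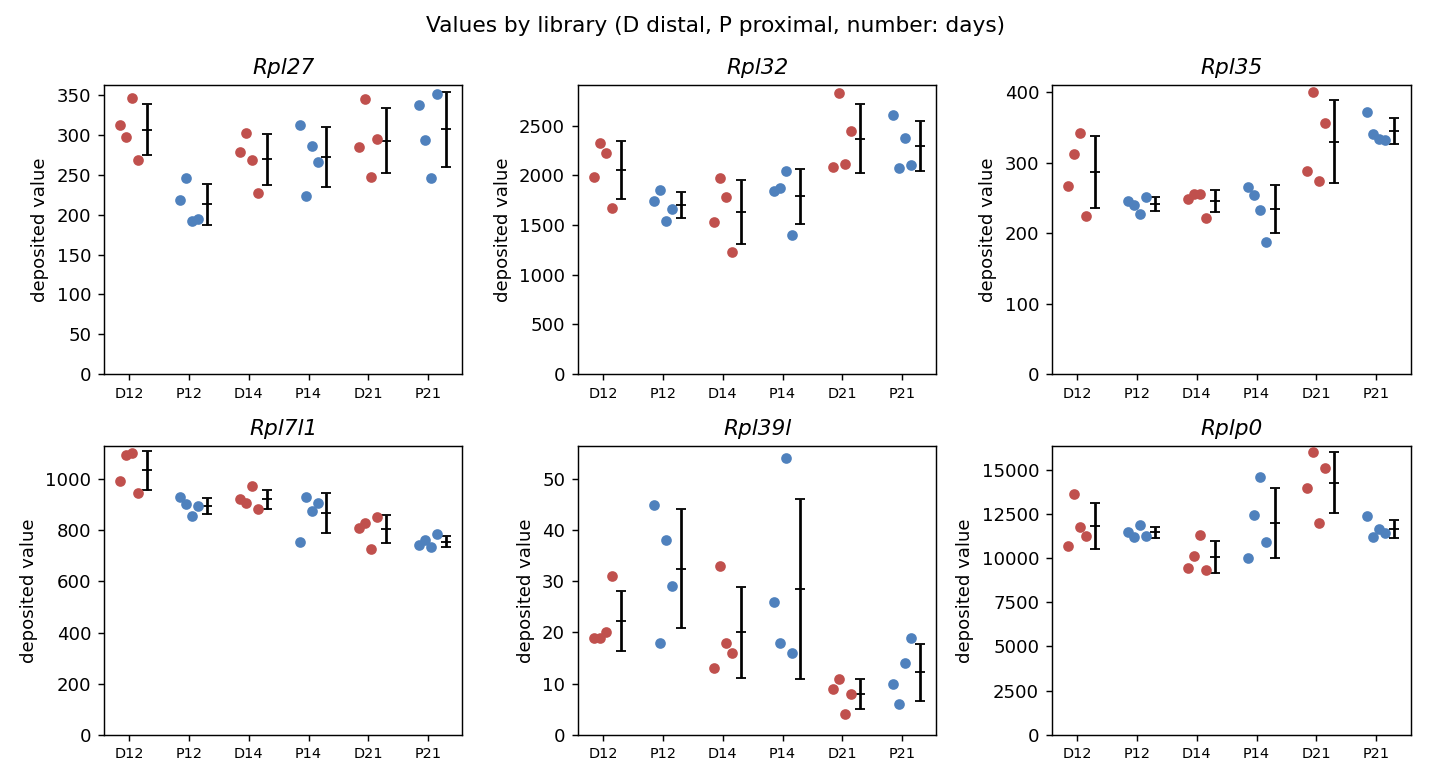
Deposited values of 6 members in every library, with distal (D, red) left of proximal (P, blue) at 12, 14 and 21 DPA; points are libraries and bars the mean and SD of 4. For Rpl27 the 4 proximal libraries at 12 DPA lie between 192 and 246, below the 269 to 346 of the distal ones, while Rpl39l and Rpl7l1 are lower at 21 than at 12 DPA in both levels.

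The 2 members that fell in both levels between 12 and 21 DPA, Rpl39l and Rpl7l1, are paralogues. Rpl39l is a copy of Rpl39 known mainly from the male germ line. It had 9, 11, 4 and 8 in distal libraries at 21 DPA, against 19, 19, 20 and 31 at 12 DPA, a difference of -1.41 ± 0.39 (adjusted p = 0.0112). In proximal libraries it had 10, 6, 14 and 19 at 21 DPA, against 45, 18, 38 and 29 at 12 DPA, a difference of -1.37 ± 0.39 (adjusted p = 0.0111). These values are small, and the scale of log2(value + 1) understates changes at such levels. Rpl7l1 fell in proximal digits by 0.24 ± 0.07 log2 units, at 756 ± 22.4 at 21 DPA and 895 ± 31.5 at 12 DPA (SD, n = 4 each; limma adjusted p = 0.00905). Scaled to table totals, that p was 0.0747.

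Whether reads can tell a paralogue from its parent depends on their sequences, shown here as the first 60 coding bases with differing bases in capitals. Rpl39l, at chr16:10170226-10174911 on the plus strand, is 85.5% identical to Rpl39, at chrX:37082520-37085402 on the minus strand, over 152 bases.
Rpl39l: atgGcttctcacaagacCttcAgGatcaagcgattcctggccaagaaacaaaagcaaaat
Rpl39: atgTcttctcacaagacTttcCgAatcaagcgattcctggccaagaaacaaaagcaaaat
Rps27l, a p53 target at chr9:66946086-66949516 on the plus strand, is 76.2% identical to Rps27, at chr3:90212522-90213651 on the minus strand, over 252 bases.
Rps27l: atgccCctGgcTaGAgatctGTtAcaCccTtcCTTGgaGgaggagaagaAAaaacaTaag
Rps27: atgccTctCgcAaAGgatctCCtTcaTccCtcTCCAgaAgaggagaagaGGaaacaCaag
The windows hold 4 mismatches in the Rpl39 pair and 18 in the Rps27 pair. Against all annotated genes, 100% of the 50-base stretches of Rpl39l were unique and 77.6% of those of Rps27l, but 1.35% of those of Rps27. Rps27l had a level of 430 per kb and Rps27 of 66.2 per kb, so the listed level of the paralogue exceeded that of the parent whose stretches are nearly all shared.

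In a ratio of paralogue to parent within a library, a factor common to the library largely cancels. It does not cancel fully, because 1 was added to each value, which matters most for the small values of Rpl39l. Whether the normalisation of the deposited values kept such ratios is not known. The 6 pairs measured were compared between distal and proximal libraries on each of 3 days by a two-sided exact permutation test of 4 against 4, for which the smallest possible p is 0.0286. None of the 18 tests passed after adjustment, the smallest adjusted p being 0.343. With that smallest possible p, 1 pair alone could not pass adjustment over 18 tests, however large its difference. The lack of calls therefore does not show that the ratios are alike. The log2 ratio of Rps4l to Rps4x at 14 DPA averaged -1.81 ± 0.10 in distal and -2.62 ± 0.65 in proximal libraries (SD, n = 4 each), with no overlap and an exact p of 0.0286. That of Rpl7l1 to Rpl7 at 14 DPA averaged -1.51 ± 0.06 in distal and -1.74 ± 0.14 in proximal libraries (SD, n = 4 each; exact p = 0.0571).

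The remaining members chosen for their roles gave no calls. Rplp1 averaged 5959 in distal and 5662 in proximal libraries at 21 DPA, 0.07 ± 0.14 log2 units apart (adjusted p = 0.781). Rpl23, which binds Mdm2, had 2564, 1880, 2302 and 2350 in proximal libraries at 21 DPA, against 1795, 1767, 1782 and 1838 at 12 DPA. These did not overlap, at 0.33 ± 0.14 (adjusted p = 0.0761). Rpl3, which reaches into the peptidyl transferase centre, differed by 0.20 ± 0.09 between distal and proximal libraries at 12 DPA (adjusted p = 0.108). Rpl10, which completes the large subunit late in assembly, differed by 0.04 ± 0.12 in the same comparison (adjusted p = 0.857).

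Within groups, libraries high in 1 member tended to be high in the others. After removal of the group means, the mean pairwise correlation was 0.31 among the 83 members over the 24 libraries, against 0.0082 among all genes. It was 0.50 among the 43 members with a mean value of at least 500 and 0.17 among the 40 below, and 0.38 in the small and 0.28 in the large subunit. The first direction of variation held 42.5% of the members' spread within groups. The correlation of a member with the mean of the others ran between -0.32 for Rpl10 and 0.94 for Rps24, a small subunit protein, with a median of 0.65. The same mean correlation was 0.47 among 10 markers of cycling cells, 0.28 among 45 ribosome assembly genes, 0.21 among 77 mitochondrial ribosomal protein genes, 0.12 among 48 translation factor genes and 0.04 among 18 genes of the mTORC1 pathway. All of these share libraries and scaling. Within groups the SD of a member ran between 0.09 log2 units and 0.58, which was that of Rpl39l.

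Genes that assemble ribosomes and run translation were called more often than the ribosomal proteins themselves at 12 DPA, although whether the shares differ was not tested. Of the 45 assembly genes, 30 rose and 0 fell in distal digits, or 66.7% against 9.25% of all genes, with a median of 0.38. Rrs1, which in yeast brings the Rpl5 and Rpl11 particle into the large subunit, averaged 865 ± 96.8 in distal and 559 ± 40.9 in proximal libraries (SD, n = 4 each; 0.63 ± 0.09 by limma, adjusted p = 4.1e-05). Bysl, needed for the small subunit, was higher by 0.59 ± 0.08 (adjusted p = 1.8e-05), Grwd1 by 0.56 ± 0.10 (adjusted p = 0.000307) and Utp4, of the small subunit processome, by 0.52 ± 0.09 (adjusted p = 0.000231). Of the 48 translation factors 28 rose and 0 fell, or 58.3%, with a median of 0.27. They were led by Eif2b3, a subunit of the exchange factor that recharges eIF2, with 744 ± 19.9 in distal and 466 ± 48.6 in proximal libraries (SD, n = 4 each; 0.68 ± 0.10 by limma, adjusted p = 5.1e-05), followed by Eif2s2 and Eif5b.

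Of the 77 mitochondrial ribosomal protein genes, 11 rose and 0 fell at 12 DPA, or 14.3%, with a median of 0.15 that is close to the 0.16 of the cytosolic members. Mrpl52 led these, at 606 ± 68.1 in distal and 430 ± 61.2 in proximal libraries (SD, n = 4 each; 0.50 ± 0.11 by limma, adjusted p = 0.00389). Of 16 other genes with pyrimidine tracts or joined to the ribosome, 2 rose and 0 fell: Fau, which encodes a fusion of a ubiquitin-like protein with a small subunit protein, by 0.47 ± 0.14 (adjusted p = 0.0249) and Npm1 by 0.30 ± 0.07 (adjusted p = 0.00334). Those 2 are 12.5% of the 16 genes. Of 18 mTORC1 pathway genes, 2 rose and 3 fell, or 11.1% and 16.7%. At 12 DPA 9.25% of all genes were called higher and 11% lower, so the mTORC1 shares lay near those of all genes.

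**Figure D5:**
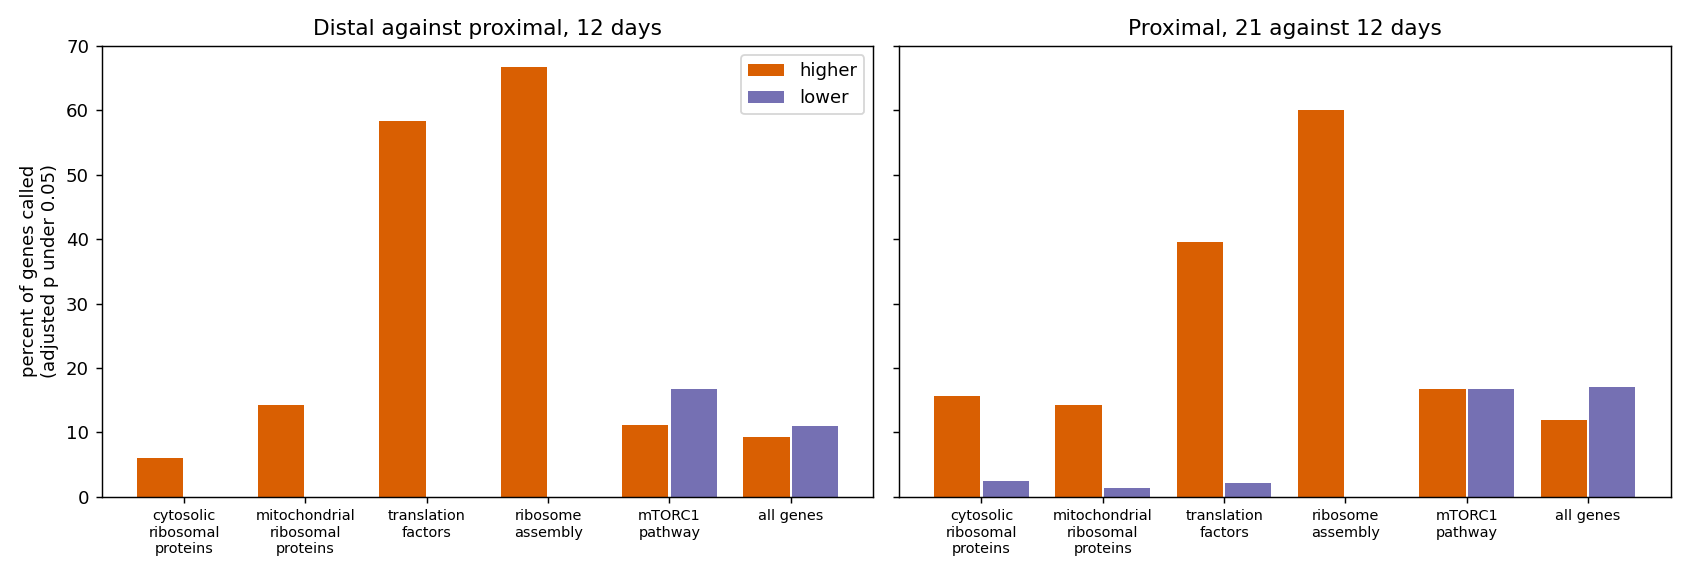
Bars give the percent of genes in each list called higher (orange) or lower (purple) at an adjusted p under 0.05, on the left for distal against proximal at 12 DPA and on the right for proximal 21 against 12 DPA. Assembly genes reach 66.7% and 60% higher, against 6.02% and 15.7% of the cytosolic ribosomal protein genes and 9.25% and 12% of all genes.

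Assembly genes and translation factors also held many of the calls in proximal digits over time. Between 12 and 21 DPA in proximal digits, 27 assembly genes rose and 0 fell, and 19 translation factors rose and 1 fell. These rises are 60% and 39.6% of the lists, where 12% of all genes were called higher and 17% lower. Of the mitochondrial ribosomal protein genes 11 rose and 1 fell, and the 14.3% that rose is near the share of all genes. Myc, the transcription factor that drives ribosome production, averaged 1070 ± 193 at 21 DPA and 538 ± 64.8 at 12 DPA (SD, n = 4 each; 0.98 ± 0.14 by limma, adjusted p = 1.3e-05). Eif5b, which joins the subunits at the start codon, was higher by 0.61 ± 0.11 (adjusted p = 0.000263). Sesn2 and Ddit4, both inhibitors of mTORC1, fell by 0.78 ± 0.13 (adjusted p = 0.000103) and 0.57 ± 0.15 (adjusted p = 0.0055). In all, 3 mTORC1 pathway genes rose and 3 fell, or 16.7% in each direction, also near the shares of all genes. Of the 16 genes with pyrimidine tracts or joined to the ribosome 1 rose and 2 fell, or 6.25% and 12.5%, the falls being those of the small nucleolar RNA hosts Zfas1 and Snhg12.

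The other comparisons held fewer assembly calls higher than lower. At 14 DPA 0 rose and 8 fell in distal relative to proximal digits, or 17.8% lower where 2.32% of all genes were, with Wdr12, of the large subunit pathway, at -0.44 ± 0.09 (adjusted p = 0.00861). At 21 DPA 0 rose and 7 fell, or 15.6% lower where 9.43% of all genes were, with the processome gene Utp20 at 1117 ± 34.4 in distal and 1495 ± 34.2 in proximal libraries (SD, n = 4 each; -0.42 ± 0.07 by limma, adjusted p = 0.000362). Between 12 and 21 DPA in distal digits 1 rose and 14 fell, or 31.1% lower where 15% of all genes were. The change in distal minus that in proximal digits was lower for 27, or 60%, and higher for 0, where 7.42% of all genes were called in each direction. Of the translation factors 9 rose and 2 fell in distal relative to proximal digits at 21 DPA, or 18.8% higher and 4.17% lower where 8.22% and 9.43% of all genes were, with Eif2b5 at 0.66 ± 0.14 (adjusted p = 0.00255). The difference in change between levels was lower for 6 translation factors, or 12.5%, and for 8 mitochondrial ribosomal protein genes, or 10.4%, and higher for 0 of either. For Larp1, the protein that binds pyrimidine tracts, that difference was -0.36 ± 0.08 (adjusted p = 0.00294). In distal digits between 12 and 21 DPA 0 of the 16 genes with pyrimidine tracts or joined to the ribosome rose and 5 fell, or 31.2% lower, led by the small nucleolar RNA host Snhg1 at 332 ± 27.2 at 21 DPA and 512 ± 62.2 at 12 DPA (SD, n = 4 each; -0.62 ± 0.09 by limma, adjusted p = 3.7e-05).

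Genes of dividing cells also differed between groups. Summed over 10 markers of cycling cells, values at 12 DPA were 13967 to 19265 in distal and 9454 to 11535 in proximal libraries, and at 21 DPA 8626 to 11440 in distal and 11605 to 17362 in proximal libraries. Of the 10, 8 rose and 0 fell at 12 DPA in distal relative to proximal digits, 0 rose and 8 fell at 21 DPA, and 0 were called at 14 DPA, where 8 differences were positive. The shares of all genes called higher and lower were 9.25% and 11% at 12 DPA, 8.22% and 9.43% at 21 DPA, and 3.06% and 2.32% at 14 DPA. Over time 0 rose and 9 fell in distal digits, with a median of -0.77 where that of the ribosomal protein genes was 0.09, and 4 rose and 0 fell in proximal digits. Of all genes 8.81% rose and 15% fell over time in distal digits, and 12% rose and 17% fell in proximal digits. The change over time differed between levels for all 10 markers, each lower in distal digits, where 7.42% of all genes were called in each direction. The median difference of the cycling markers thus had the sign of that of the members at 12 DPA and over time in proximal digits, and the opposite sign at 14 DPA and over time in distal digits. At 21 DPA the median was -0.55 for the cycling markers and 0.01 for the members. For the difference in change it was -1.125 for the cycling markers and -0.15 for the members. Gm26917, a locus with ribosomal RNA sequence, held 5.26% to 7.96% of the table total in distal and 3.39% to 4.82% in proximal libraries at 12 DPA. The difference of its values at 12 DPA, 0.7346 log2 units, was not called, and its unadjusted limma p was not under 0.05. At 14 DPA the shares overlapped, at 4.902% to 6.971% in distal and 5.26% to 7.687% in proximal libraries. They also overlapped at 21 DPA, at 4.403% to 7.107% in distal and 3.943% to 6.02% in proximal libraries. Markers of the labelled tissue were found in every library, at unlike levels. The 5 osteoblast markers summed to at least 55703 and 5 epidermal markers to at least 185718 in every library. Sums were lower for 3 chondrocyte markers, at 1425 to 8892, and for 2 markers of bone marrow and blood, at 218 to 2103. In proximal libraries between 12 and 21 DPA 4 of 5 osteoblast, 3 of 4 dermal fibroblast and 3 of 4 macrophage markers were called lower, where 17% of all genes were. The remaining osteoblast marker went the other way, by 2.19 log2 units at an unadjusted limma p under 0.05, and was not called. The 2 neutrophil markers analysed, S100a8 and S100a9, summed to 1078 to 2558 in distal and 91 to 363 in proximal libraries at 12 DPA. Of these 2, 0 were called at 12 DPA, though both had an unadjusted limma p under 0.05. Their sums were 133 to 13924 in distal and 436 to 1496 in proximal libraries at 14 DPA. At 21 DPA they were 91 to 341 in distal and 243 to 5933 in proximal libraries. Over time in proximal digits 1 of the 2 was called higher, where 12% of all genes were. At 12 DPA 4 dermal fibroblast markers summed to 90048 to 131451 in distal and 218221 to 260906 in proximal libraries, with 2 called lower. The 3 chondrocyte markers then summed to 2083 to 3224 in distal and 3475 to 8892 in proximal libraries, with 2 called lower and 1 higher. The part of any of these in the differences of the ribosomal protein genes was not tested.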

How the data were processed

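Per the labels' protocols, ribosomal RNA was removed from total RNA before sequencing. The submitters' processing notes list cutadapt, featureCounts 1.6.3 from Subread, STAR 2.5.4b and the mm10 build; settings for strand and for reads with several matches are not given in the sources used here. The deposited whole numbers for 15055 genes were used as a score rather than as reads: in the 9650 genes whose values all exceed 100, the direction of least spread across libraries was 0.00674 in natural log units, against 0.0453 from Poisson sampling, 6.72 times more. They look normalised and rounded, so depth is unknown, and p-values are likely too small because part of the spread was removed. Table totals, in units of 1e+06, ran between 15.3 and 19.4. Every gene reached at least 20 in some library, so the table was probably filtered; all 83 members were tested, without a further filter.

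Here limma 3.58.1 in R 4.3.3 was fitted to log2(value + 1) with 6 group means and a trend over 24 libraries (18 residual and 3.91 prior degrees of freedom), after a test on simulated data. Members and lists were chosen with earlier results of these data known. The genes named are 16 members chosen for their roles and the measured paralogues, the 6 largest called rises and falls per comparison, the highest and lowest member, Rps19bp1, and up to 4 called genes of each other list and comparison; Rpl8, Rpl4, Rpl24, Rps24, Gm26917 and the calls listed only by name were named after their values were seen. Values of some called members are not reported here. Alternatives were median-ratio factors, table totals, pseudocounts of 8 and 0.5, genes with a mean of at least 50 alone, a fit to the compared groups alone, a replicate block, array quality weights, core members only, and each library left out. Shared sequence was counted as words of 50 or 100 bases in GENCODE M21 transcripts, which matched all 83 members; the table's length equalled the exon union for 71 of them.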

Additional observations from a re-analysis of the deposited data

Results flagged for a closer look

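In 120 sets of 4 libraries checked with Dixon's test, 2 held a library far from the others, where chance gives about 1 in 20 sets. The summed share of the 83 members in the table total was 0.981% in distal 21 DPA replicate 2, against 0.823% to 0.847% in the other 3 libraries of its group. Rpl39l had a value of 31 in distal 12 DPA replicate 4, against 19 to 20 in the other 3. For Rpl27 the change between 12 and 21 DPA differed between distal and proximal digits, by -0.59 log2 units in the interaction term.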

How the results depend on the processing

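Sequencing depth is unknown, so no counting error is given. No called member changed direction under an alternative run. The median difference of the members kept its sign under every one except at 21 DPA, where leaving out 1 library gave -0.029 to 0.0481; at 14 DPA that gave -0.179 to -0.0514 and in distal digits over time 0.0369 to 0.131. With table totals the count of members called was 1 at 12 DPA, 0 at 14 DPA, 2 at 21 DPA and 3 for the difference in change, and the median at 21 DPA was -0.13; all genes then split, higher and lower, 845 and 1697 at 12 DPA (1392 and 1661 with the deposited scaling), 627 and 3559 at 21 DPA (1237 and 1419), 675 and 2607 in distal digits over time (1326 and 2258) and 595 and 1374 for the difference in change (1117 and 1117). Median-ratio factors moved it the other way in these, to 1605 and 1446, 1579 and 1031, 1831 and 1937, and 1227 and 1024. With these factors the count of members was 1 at 21 DPA and 5 in distal digits over time. At 14 DPA it was 2 with a pseudocount of 8 and 2 with a mean value of at least 50. With only the compared groups it was 0 at 14 DPA, 33 in proximal digits over time and 2 for the difference in change. Array quality weights gave 0 at 14 DPA, 1 at 21 DPA, 5 in distal and 26 in proximal digits over time and 0 for the difference in change. Core members alone gave 3 at 12 DPA and 1 in distal digits over time. Leaving out 1 library in turn gave 2 to 6 at 12 DPA, 0 to 4 at 14 DPA, 0 to 1 at 21 DPA, 2 to 4 in distal and 8 to 20 in proximal digits over time, and 0 to 2 for the difference in change. Beyond fewer samples or members, the cause of these shifts was not tested.

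Same-numbered libraries of different groups correlated between -0.19 and 0.19, over 0.1 in 4 of 20 pairs. Over all libraries of different groups the mean correlation was 0.033 for the same number and -0.011 for different numbers. The numbers were not used as pairs in the main fit. Part of the spread appears to have been removed from the values, so these low correlations cannot exclude pairing. With the replicate block the count was 0 at 14 DPA and 2 for the difference in change.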
